A study of Mus musculus with 13 samples.

Results

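Inflamed mucosa from rectal prolapses was compared with normal rectal mucosa of mice on 8 Affymetrix Mouse Gene 1.0 ST arrays, 4 per group, out of 13 in the series. The other 5 arrays carried adenocarcinomas. They share in the fit's estimate of the spread and in the choice of a transcript cluster per gene, and their values are given only where inflamed mucosa is set against them. Members were chosen by tissue label alone, and every gene with a transcript cluster naming it, 19938 in all, was tested. All 13 samples carry the genotype label α6fl/fl Villin-Cre, in which the α6 integrin gene is floxed and Cre is driven by the villin promoter, active in intestinal epithelium and not in muscle, stroma or blood cells. Another field of the labels calls the normal samples controls, so whether they carry the deletion is not settled by the labels. Inflamed mucosa 1 came from a female of 53 weeks, inflamed mucosa 2 and 3 from males of 60 weeks and inflamed mucosa 4 from a male of 64 weeks. Normal mucosa 1 and 6 came from females of 53 and 70 weeks and normal mucosa 2 and 4 from males of 60 and 64 weeks. Adenocarcinomas 1 and 6 came from females of 53 and 80 weeks, 2 and 3 from males of 60 weeks and 4 from a male of 64 weeks. No drug or other agent is named for any group.

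Inflamed mucosa was dissected from frozen sections of the prolapse after a pathologist had read neighbouring stained sections, whereas normal mucosa was scraped from the recto-anal region. Every difference between the groups is therefore also one between 2 ways of collecting tissue, and the 2 cannot be told apart. In pieces of whole tissue, more cells of a type and more transcript per cell cannot be told apart either. Whether arrays stand for separate mice is not stated, so p-values measure the spread between these samples.

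The rectal wall is built in layers. A single sheet of epithelium, renewed from stem cells at the crypt base, absorbs salt and water and secretes mucus. It rests through hemidesmosomes, which bind the laminins of the basement membrane with the integrin pair α6β4, on a lamina propria of fibroblasts, vessels, nerves and immune cells. Thin and thick sheets of smooth muscle lie below. Stromal cells under the crypt secrete Wnt ligands and BMP antagonists that keep stem cells dividing, and BMP ligands nearer the surface let the epithelium mature. In a prolapse the mucosa is pushed out through the anus and exposed.

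Values are the log2 expression values the authors deposited, and array medians lay between 6.41 and 6.59. Differences are inflamed minus normal mucosa on that scale, ± their standard error (n = 4 and 4), with p-values from limma adjusted by Benjamini-Hochberg over all 19938 genes. A gene is said to have risen or fallen where the adjusted p was below 0.05, and arrays are listed in the order inflamed mucosa 1, 2, 3 and 4, or normal mucosa 1, 2, 4 and 6. The 4 inflamed arrays resembled each other more closely (correlations from 0.987 to 0.991) than the normal ones did (0.971 to 0.987), and correlations between the groups ran from 0.931 to 0.973. Transcripts absent by sex read up to 5.57, and 4427 genes averaged no more than that in normal mucosa, so folds of such dim genes depend on background.

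Normal samples 1 and 6 stood apart from the other normal arrays. Normal mucosa 1 carried keratins of stratified squamous epithelium, the lining of the anal canal. The mean over 20 squamous genes was 9.23, 6.27, 6.07 and 6.01 in normal mucosa and 6.24, 5.89, 5.97 and 6.21 in inflamed mucosa. Krt5, a keratin of basal squamous cells, read 12.10, 6.52, 6.07 and 6.15 on the normal arrays and 6.34, 6.46, 6.23 and 6.11 on the inflamed ones. All arrays other than normal mucosa 1 were low, and of the list 1 gene fell and none rose. Krt4, Krt6a, Krt6b and the protease Tmprss11b, found in such epithelium, had the same pattern, with normal mucosa 1 at 11.22, 10.60, 11.92 and 9.72. That array was also high in lactoferrin (Ltf, 11.53, 6.0, 5.84 and 6.0 on the normal arrays), in the platelet chemokine Ppbp (12.39, 5.75, 6.07 and 6.77) and in Cd3g, a chain of the T cell receptor complex (9.35, 5.48, 6.02 and 6.13). None of these genes passed between the groups (adjusted p = 0.426 for Krt5, 0.282 for Ltf and 0.23 for Ppbp). Cd3g differed by 0.32 ± 0.66 (adjusted p = 0.724) and rose by 1.19 without normal mucosa 1 (adjusted p = 0.0304), as it did without both normal mucosa 1 and 6. Normal mucosa 6 carried the most smooth muscle and stromal transcript of the normal arrays, as the levels below show. Counts are therefore given also without both arrays where that moves them.

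In all, 5322 genes (26.7%; 3524 without inflamed mucosa 2, and 3928 in a fit of the 8 arrays alone) differed between inflamed and normal mucosa, of which 2730 (13.7%) were higher and 2592 (13%) lower. The count of lower genes was 1391, 1722 or 1471 without inflamed mucosa 2, inflamed mucosa 4 or normal mucosa 2. At least 2-fold differences were less even, with 875 genes (4.39%) higher and 212 (1.06%) lower. The median difference over all genes was -0.09. The balance of directions depended on scaling: 51.3% of called genes were higher as deposited, 43.4% with arrays centred on their medians, 58.9% after cyclic loess and 90.6% with arrays centred on the mean of the pan-epithelial list. Arrays were also centred on the medians of the named genes, meaning all 19938 genes with a cluster naming them and not those picked here. This centring moved the median difference to -0.28 and left 16.5% of calls higher. The count of genes at least 2-fold apart, 1087 in both directions (5.45%), moved less, to 1097 under that centring and 1482 with the pan-epithelial list. The bar plot of gene lists shows which groups of genes lay above these backgrounds.

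**Figure D1:**
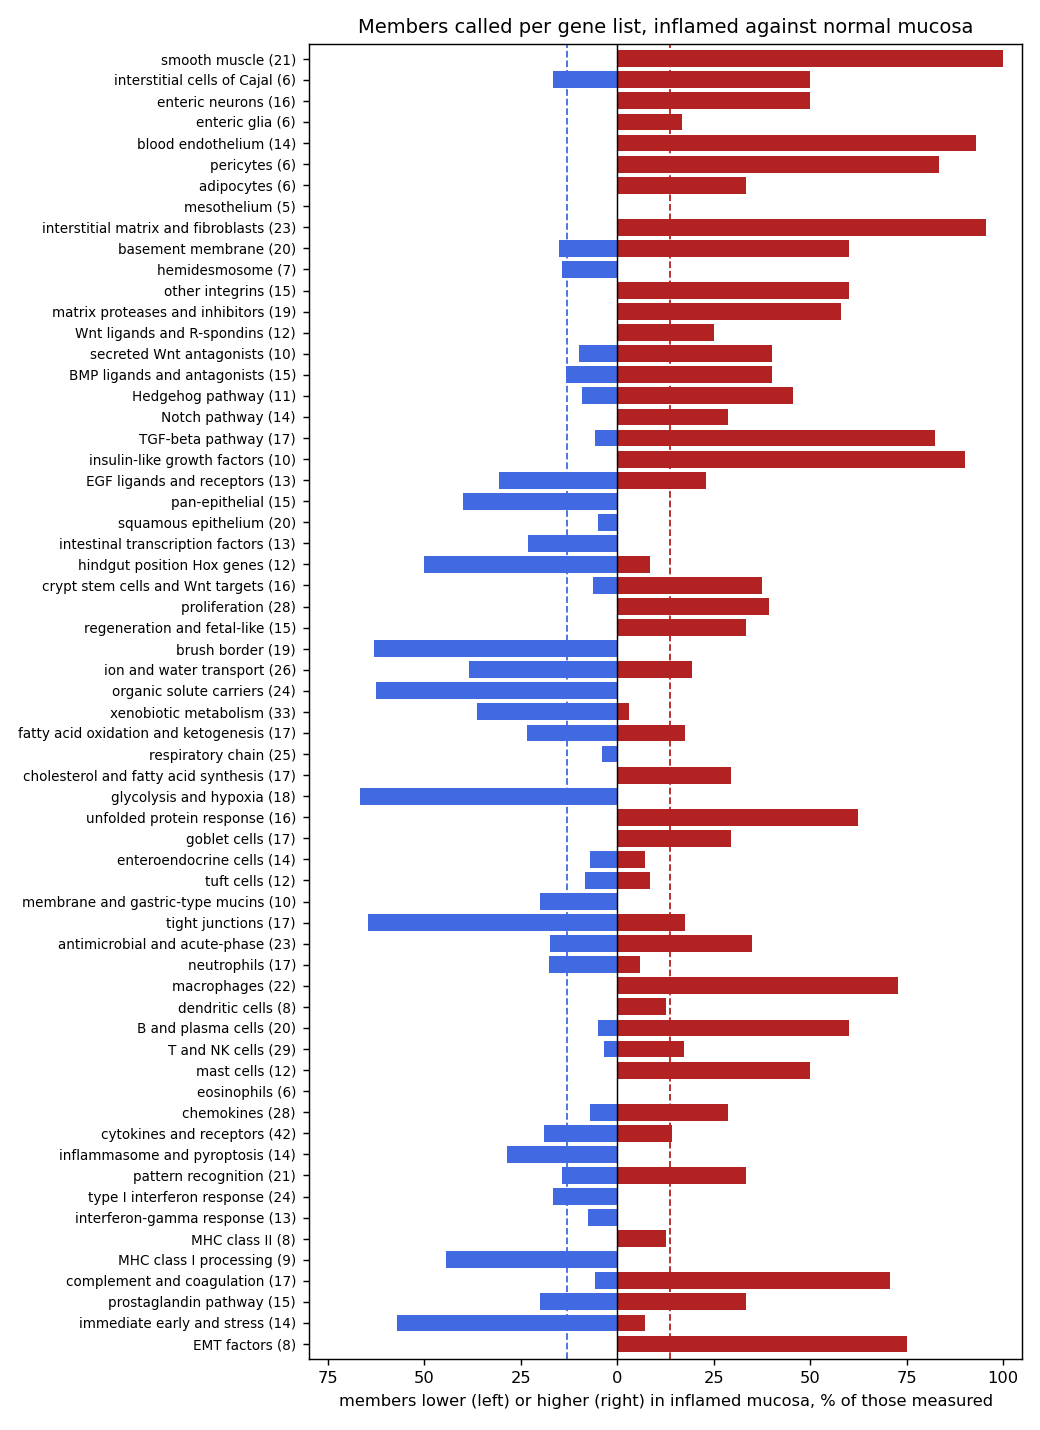
Share of the measured members of each gene list (number measured in brackets; lists with at least 5) that were called higher (red, right) or lower (blue, left) in inflamed mucosa, in percent. Dashed lines mark the shares over all genes, 13.7% higher and 13% lower; smooth muscle, interstitial matrix and endothelial lists reach furthest right, and brush border, solute carrier, glycolysis and tight junction lists furthest left.

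Smooth muscle transcripts had the largest median difference of the 64 gene lists. All 21 measured members of the list rose, none of them overlapping between the groups (27.6% of all genes did not overlap), with a median of 3.21. The mean of the list was 9.65, 10.69, 10.22 and 10.48 on the inflamed arrays and 7.12, 7.12, 6.88 and 7.85 on the normal arrays. Myl9, the regulatory light chain of smooth muscle myosin, read 11.03, 12.00, 11.75 and 11.84 in inflamed mucosa and 5.99, 6.93, 5.81 and 8.24 in normal mucosa. Normal mucosa 6 was the highest normal array and still lay far below every inflamed array. Myl9 was 30.1-fold higher (4.91 ± 0.41, adjusted p = 2.91e-06), followed among contractile genes by calponin (Cnn1, 4.77 ± 0.33), desmin (Des, 4.76 ± 0.34) and smooth muscle actin (Acta2, 4.66 ± 0.50). Acta2 was lower on 3 normal arrays than on normal mucosa 6, where it read 10.03, and its rise was 5.39 without that array. The heavy chain Myh11 rose by 4.19 ± 0.26 (adjusted p = 5.38e-07). Many smooth muscle genes are switched on by serum response factor through the CArG box. The promoter of Myl9 holds one, shown in capitals in a window of 70 bases that begins 191 bases before the start (RefSeq, GRCm38.p6, chr2:156775273-156775342, plus strand):
Myl9: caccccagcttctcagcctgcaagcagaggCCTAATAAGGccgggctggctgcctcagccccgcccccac
Searched on both strands from 250 bases before to 50 bases after the start, 1 of the 17 list members searched held the box (5.88%). Over all genes searched it was in 488 of 27025 (1.81%), with 1 chromosome left out.

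**Figure D2:**
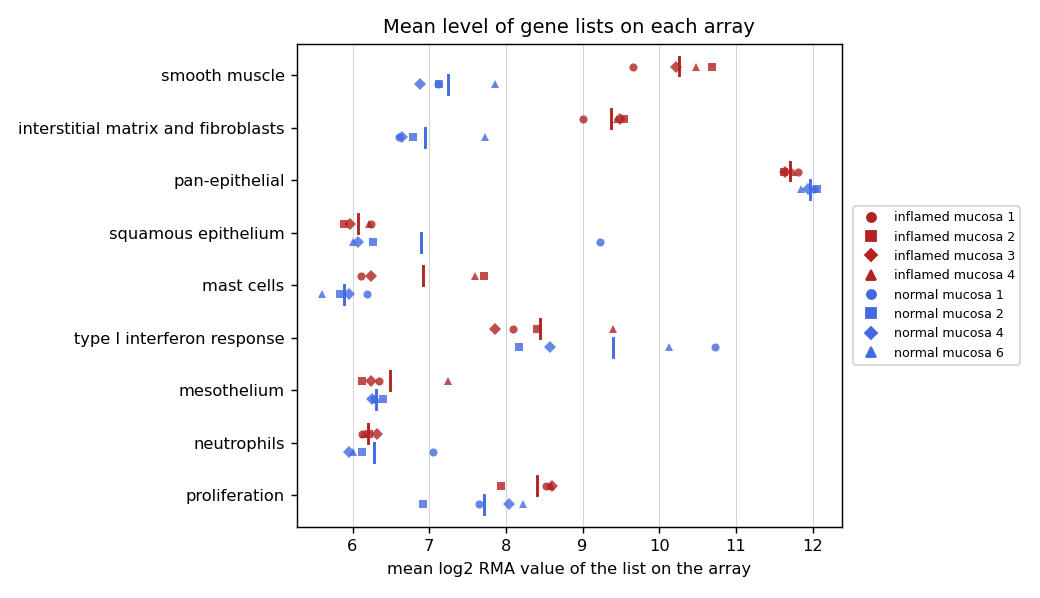
Mean log2 value of 9 gene lists on each of the 8 arrays (red, inflamed mucosa; blue, normal mucosa; the symbol gives the array and the bar the group mean). Smooth muscle and matrix levels separate the groups, squamous and neutrophil levels stand out on normal mucosa 1 alone, and mast cell levels are high on inflamed mucosa 2 and 4.

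Fibroblasts and their matrix followed closely. Of 23 genes of interstitial matrix and fibroblasts, 22 rose and none fell, with a median of 1.93. Their mean was 9.01, 9.53, 9.49 and 9.45 on the inflamed and 6.61, 6.79, 6.65 and 7.73 on the normal arrays, so that inflamed mucosa 1 was the lowest of its group and normal mucosa 6 the highest of its own. Osteoglycin (Ogn), a small proteoglycan of collagen fibres, read 9.42, 10.59, 10.43 and 10.33 against 4.97, 4.80, 5.44 and 7.67. Periostin (Postn), secreted by activated fibroblasts, read 10.67, 11.53, 11.45 and 11.41 against 5.24, 6.0, 6.78 and 9.23. The groups stayed apart for each gene, and the nearest arrays were normal mucosa 6 and inflamed mucosa 1. Ogn rose 22.2-fold and Postn 21.9-fold (adjusted p = 3.05e-05 and 0.000127). The matrix proteins Sparcl1 and dermatopontin (Dpt) rose 21.8-fold and 19.8-fold. Adamdec1, a protease made by fibroblasts and macrophages of the gut lamina propria, rose 21.1-fold, and the matricellular gene Ccn3 17.9-fold. Without normal mucosa 6 the differences of Ogn, Postn, Sparcl1, Dpt and Adamdec1 were 5.12, 5.26, 5.08, 5.01 and 5.09. Like the vessel, nerve, growth factor, macrophage and complement genes below, they rose on the same arrays as the smooth muscle mean, and its part in their rise was not tested.

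Transcripts of vessels and nerves rose too. Of 14 blood endothelial genes 13 rose, with a median of 1.37, and all 4 lymphatic genes rose. Endomucin (Emcn), a sialomucin of capillary and venous endothelium, read 8.52, 9.61, 9.22 and 9.11 in inflamed and 4.77, 5.27, 5.47 and 6.89 in normal mucosa. Every inflamed array was above normal mucosa 6, the highest normal array, and the rise was 3.51 ± 0.35 (adjusted p = 1.1e-05). The pericyte gene Rgs5 rose 16.5-fold, the lymphatic hyaluronan receptor Lyve1 3.22-fold and podoplanin (Pdpn), of lymphatic endothelium and fibroblasts, 3.44-fold. The lipid carrier Fabp4, found in capillary endothelium and fat, rose 5.19-fold. Of 6 adipocyte genes 2 rose (33.3%, beside 13.7% of all genes), with a median of -0.17, and 0 of 5 mesothelial genes did. The mesothelial mean was nevertheless highest on inflamed mucosa 4 (6.34, 6.13, 6.24 and 7.24 on the inflamed arrays), where Upk3b read 7.54.

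Of 16 enteric neuron genes 8 rose and none fell (4 without both normal mucosa 1 and 6). The neuropeptide Vip read 8.02, 9.56, 8.37 and 8.84 against 5.02, 5.34, 5.53 and 5.52. Inflamed mucosa 2 was highest, as it was for smooth muscle, and the normal arrays were at background. Stmn2, a microtubule regulator of neurons, rose by 2.63 ± 0.29, and the receptor tyrosine kinase Ret by 1.16 ± 0.16 (adjusted p = 0.000157). Snap25, of the synaptic release machinery, rose by 1.39 ± 0.34 (adjusted p = 0.00908), a call lost without both normal mucosa 1 and 6 (adjusted p = 0.0618). Of 6 enteric glia genes 1 rose (16.7%, near the 13.7% of all genes) and none fell, with a median of -0.16. The cadherin Cdh19 rose by 1.77 ± 0.25, whereas the glial factor Sox10 differed by -0.04 ± 0.12 (adjusted p = 0.82). Kit and Etv1, which mark the pacemaker cells of Cajal, rose by 0.72 ± 0.18 and 1.79 ± 0.22. Kit is also among the mast cell genes counted below as higher. Ano1, the chloride channel of those cells but also of epithelium, fell by 0.43 ± 0.11 (adjusted p = 0.0127), though not with centring on the pan-epithelial list (adjusted p = 0.333).

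The integrin targeted in this model and its partner did not differ detectably. Itga6 (transcript cluster 10472820) read 11.14, 10.90, 11.10 and 11.20 in inflamed and 10.96, 10.75, 11.16 and 10.76 in normal mucosa. The groups overlapped. The difference was 0.18 ± 0.10 (adjusted p = 0.195), and centring on the pan-epithelial list made it a rise of 0.44 (adjusted p = 0.00623). Itgb4 differed by -0.15 ± 0.11 (adjusted p = 0.311), and centring on the medians of the named genes made it a fall (adjusted p = 0.0265). Each cluster reads along the whole gene, and which exons are floxed was not used here, so the levels are no test of the deletion. Itga3, which pairs with β1 as another laminin receptor of epithelium, fell by 0.49 ± 0.11 (adjusted p = 0.00584), a call lost with centring on the pan-epithelial list. By contrast, 9 of 15 other integrin genes rose and none fell, among them the fibronectin receptor chain Itga5 (2.02 ± 0.19) and the shared chain Itgb1 (0.87 ± 0.11).

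Of 20 basement membrane genes 12 rose (60%). The 3 that fell (15%; 0 with centring on the pan-epithelial list, 1 without inflamed mucosa 2 or normal mucosa 2, with the replicate block and without both normal mucosa 1 and 6, and 5 without normal mucosa 6 and with centring on the medians of the named genes) are a share near the 13% of all genes. Nidogen (Nid1), which links laminin to type IV collagen, read 9.57, 10.31, 10.49 and 9.84 against 5.99, 6.83, 6.18 and 7.51. The laminin chains Lamc1 and Lamb1, used widely in vessels and muscle, rose by 2.38 ± 0.19 and 2.24 ± 0.15. Chains of the epithelial laminin bound by α6β4 did not pass: Lama3 differed by -0.52 ± 0.23 (adjusted p = 0.103) and Lamb3 by -0.42 ± 0.16 (adjusted p = 0.0653). Lama3 passed as a difference of -0.75 without normal mucosa 6 (adjusted p = 0.0117), and Lamb3 as a fall too, at -0.51 without inflamed mucosa 1 (adjusted p = 0.0419), at -0.49 without normal mucosa 4 (adjusted p = 0.0468) and at -0.54 without normal mucosa 6 (adjusted p = 0.02). Agrin (Agrn), a heparan sulfate proteoglycan, fell by 0.77 ± 0.17 (adjusted p = 0.00443), though not without both normal mucosa 1 and 6 (adjusted p = 0.0518) or with centring on the pan-epithelial list (adjusted p = 0.0531).

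Genes that carry signals between stroma and epithelium come next. Among Wnt ligands and R-spondins 3 of 12 rose (25%, beside 13.7% of all genes) and none fell. The rises numbered 5 with centring on the pan-epithelial list, and the median of the list was -0.07. Wnt5a, a ligand of mesenchymal cells, read 7.84, 7.95, 7.67 and 8.31 in inflamed and 6.08, 5.75, 6.08 and 6.08 in normal mucosa. The groups were well apart, and Wnt5a rose by 1.95 ± 0.18 (adjusted p = 5.36e-06). Wnt2b, which signals through β-catenin, rose by 1.36 ± 0.21, and Rspo3, the R-spondin that amplifies Wnt signals at the crypt base, by 1.16 ± 0.16 (adjusted p = 0.000394 and 0.000133). Secreted Wnt antagonists rose as well, 4 of 10, with 1 lower. Sfrp2, which binds Wnt proteins outside the cell, read 9.44, 9.06, 9.87 and 9.19 against 6.25, 5.73, 5.95 and 6.56 and rose 9.63-fold (adjusted p = 4.66e-07). Dkk3 rose by 2.04 ± 0.16 and Frzb by 1.6 ± 0.20. Sfrp4 rose by 1.30 ± 0.32 (adjusted p = 0.0099), with inflamed mucosa 1 among the normal arrays.

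Of 15 BMP ligands and antagonists 6 rose (40%) and 2 fell (13.3%, near the 13% of all genes). Bmp4 read 9.80, 10.03, 10.06 and 10.68 against 6.29, 6.29, 6.50 and 8.79, and Bmp5 9.59, 9.54, 9.41 and 9.47 against 5.79, 5.58, 5.83 and 7.86. In each gene normal mucosa 6 lay far above the other normal arrays and below every inflamed one. The rises were 3.18 ± 0.44 and 3.24 ± 0.37, and 3.78 and 3.77 without that array. Bmp6 and Bmp7 rose by 1.51 ± 0.15 and 1.49 ± 0.19. The antagonists rose too: gremlin (Grem1), made by stromal cells at the crypt base, read 10.07, 10.79, 10.30 and 10.75 against 7.53, 7.64, 7.37 and 7.68 (2.92 ± 0.20, adjusted p = 8.2e-07), and Chrdl1 rose by 2.82 ± 0.25. Bmp2, in the gut made mainly by mature epithelium, went the other way, at 9.45, 9.18, 9.71 and 9.76 against 10.93, 10.77, 10.92 and 10.52. Every inflamed array lay below every normal array, and Bmp2 fell by 1.26 ± 0.13 (adjusted p = 1.97e-05). Id1, a transcriptional target of BMP signalling, fell by 0.75 ± 0.15 (adjusted p = 0.00229).

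In the Hedgehog list 5 of 11 genes rose and 1 fell; the rises numbered 8 with centring on the pan-epithelial list. Indian hedgehog (Ihh), the epithelial ligand, read 9.19, 9.18, 9.25 and 8.90 in inflamed and 9.88, 9.75, 9.81 and 9.90 in normal mucosa and fell by 0.70 ± 0.09 (adjusted p = 7.87e-05). The genes that rose act in responding cells, among them Hhip, Boc, Gli3 and Smo. Hhip, a decoy receptor induced by the pathway, read 8.29, 8.81, 9.0 and 8.02 against 4.80, 5.40, 5.03 and 7.30. Normal mucosa 6 was again the highest normal array. Hhip rose by 2.90 ± 0.47, the coreceptor Boc by 1.12 ± 0.20, the transcription factor Gli3 by 1.0 ± 0.17 and the transducer Smo by 0.86 ± 0.14 (adjusted p = 0.000566, 0.00107, 0.000925 and 0.000626).

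**Figure D3:**
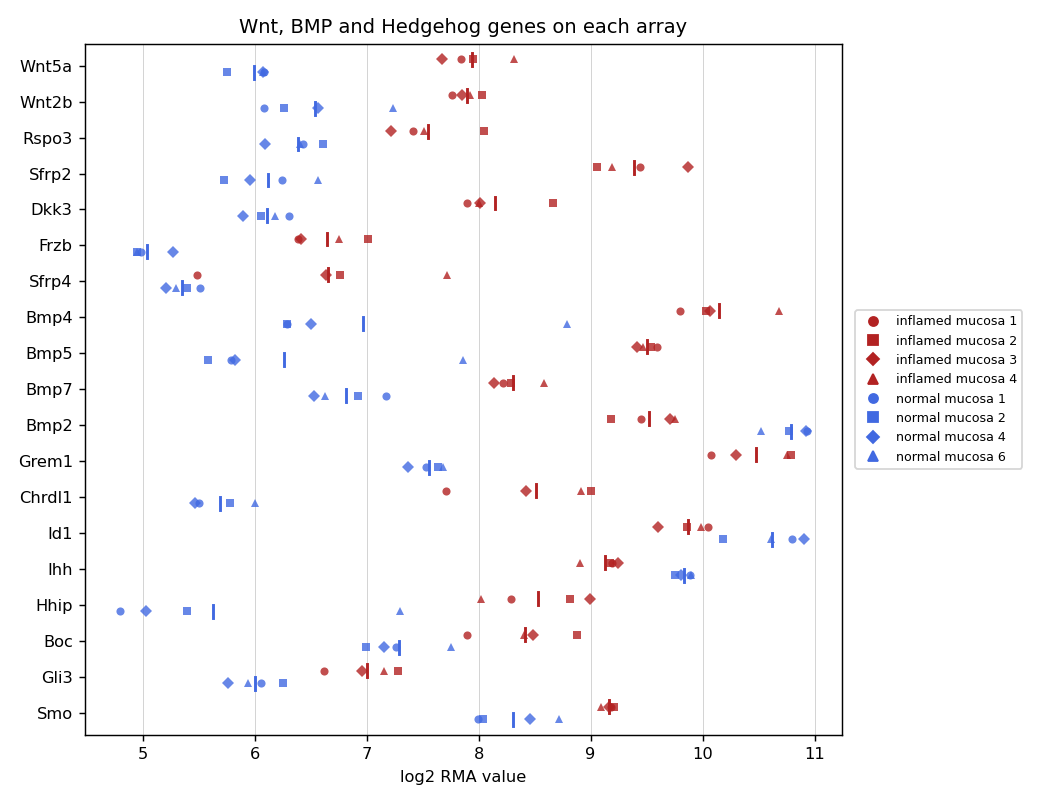
Log2 values of Wnt, BMP and Hedgehog genes on each array (red, inflamed mucosa; blue, normal mucosa; symbols give the arrays, bars the group means). Most of the genes shown lie to the right in inflamed mucosa, whereas Bmp2, Id1 and Ihh lie to the left, with no overlap. Only called genes are shown, and most measured members of each of these lists did not rise.

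Of 17 TGF-beta pathway genes 14 rose and 1 fell, with a median of 1.14. The ligand Tgfb3 read 7.45, 9.13, 8.31 and 8.55 against 6.11, 5.88, 5.48 and 6.07, lowest among inflamed arrays on inflamed mucosa 1. It rose by 2.48 ± 0.27, and Tgfb1 by 1.05 ± 0.16 (adjusted p = 2.14e-05 and 0.000335). The coreceptor Tgfbr3 and the latent TGF-beta binding protein Ltbp4 rose by 2.61 ± 0.30 and 2.28 ± 0.23, and Ccn2, a target of the pathway, by 2.47 ± 0.22. The 1 member that fell, Smad7, is an inhibitor of the pathway. It read 8.84, 8.66, 8.89 and 8.83 against 9.75, 9.73, 9.86 and 9.44, a difference of -0.89 ± 0.11 (adjusted p = 5.23e-05).

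Insulin-like growth factor genes rose in 9 of 10 members. Igf1, a stromal growth factor in this tissue, read 8.21, 8.62, 8.54 and 8.61 against 5.66, 6.08, 5.99 and 6.24. The 2 groups were each tight, and Igf1 rose 5.66-fold (adjusted p = 1.09e-06). The binding proteins Igfbp4 and Igfbp7 rose 10.3-fold and 17.4-fold, and without normal mucosa 6 the difference of Igfbp7 was 4.83 in place of 4.12. Of the EGF family, 3 of 13 genes rose and 4 fell; the rises numbered 1 without inflamed mucosa 1, inflamed mucosa 2 or normal mucosa 2, and the falls 2 with centring on the pan-epithelial list. The shares were 23.1% and 30.8%. The receptors Erbb2 and Erbb3, both carried by epithelium, fell, with differences of -0.83 ± 0.17 and -0.73 ± 0.16 (adjusted p = 0.00276 and 0.00542). Nrg1, a ligand of Erbb3, rose by 1.22 ± 0.21 (adjusted p = 0.0009). Of 14 Notch genes 4 rose and none fell, and 8 with centring on the pan-epithelial list.

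Epithelial transcript was abundant in both groups. The mean over 15 pan-epithelial genes was 11.81, 11.63, 11.64 and 11.74 on the inflamed and 12.02, 12.05, 11.94 and 11.85 on the normal arrays. Keratins 8 and 19 of simple epithelium did not pass (Krt8 -0.08 ± 0.07, adjusted p = 0.356; Krt19 -0.05 ± 0.07, adjusted p = 0.582), nor did the adhesion molecule Epcam (-0.22 ± 0.10, adjusted p = 0.0996). Each of these 3 passed as a fall with centring on the medians of the named genes, and Krt19 as a rise with centring on the pan-epithelial list. Of the list, 6 genes fell and none rose, and 13 fell with centring on the medians of the named genes. Centring on the pan-epithelial list sets the mean of these same 15 genes equal on all arrays. The 2 falls left under it, and the rise of Krt19, a member, depend on that scaling and are no test of the list. The transcription factor Elf3 fell by 0.68 ± 0.11. Villin (Vil1), whose promoter drives the Cre, read 11.25, 11.06, 11.36 and 11.02 against 11.76, 11.55, 11.47 and 11.37 and fell by 0.36 ± 0.12 (adjusted p = 0.0424). That call was lost in 10 of the alternatives, among them each fit without 1 of inflamed mucosa 1, 2 or 4 or of normal mucosa 1, 2 or 4 (adjusted p from 0.0544 to 0.113).

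Genes of the seal between epithelial cells fell. Of 17 tight junction genes 11 fell, a count of 5 with centring on the pan-epithelial list. Occludin (Ocln) read 9.92, 9.78, 9.80 and 9.78 in inflamed and 10.82, 11.07, 10.74 and 10.37 in normal mucosa. All inflamed arrays lay within a narrow band below every normal array, a difference of -0.93 ± 0.13 (adjusted p = 0.000218). Its relative Marveld3 and the barrier claudin Cldn3 fell, with differences of -0.72 ± 0.12 and -0.76 ± 0.11 (adjusted p = 0.000905 and 0.000303). A further 3 members rose (17.6%, near the 13.7% of all genes), a count of 0 without inflamed mucosa 1, inflamed mucosa 2 or normal mucosa 2 and in a fit of the 8 arrays alone, and 1 without inflamed mucosa 3, inflamed mucosa 4 or normal mucosa 1, with the replicate block, with sex as a covariate, with age as a covariate and with cyclic loess.

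Genes of hindgut position and of epithelial maturity were among those that fell. Of 12 posterior Hox genes 6 fell and 1 rose, the falls numbering 2 with centring on the pan-epithelial list. Hoxd10 read 8.64, 8.46, 8.68 and 8.48 against 9.59, 9.61, 9.43 and 9.65, and Hoxd11 9.11, 8.98, 9.04 and 9.0 against 9.60, 9.73, 9.69 and 9.75. Arrays within each group were nearly equal, with differences of -1.0 ± 0.10 and -0.66 ± 0.09 (adjusted p = 1.45e-05 and 0.000122). Hoxd13 fell by 0.51 ± 0.10 (adjusted p = 0.00322), though not with centring on the pan-epithelial list. Hoxa11 rose by 0.53 ± 0.10 (adjusted p = 0.00149). Of 13 intestinal transcription factors 3 fell (23.1%, beside 13% of all genes). The count was 1 with centring on the pan-epithelial list and without both normal mucosa 1 and 6. With centring on the medians of the named genes it was 6. Klf4, of differentiated colonocytes and goblet cells, fell by 0.59 ± 0.11 (limma, adjusted p = 0.00161). Hnf4g, of the enterocyte programme, fell by 0.98 ± 0.25 (limma, adjusted p = 0.0105). The call of Hnf4g was lost without both normal mucosa 1 and 6 (adjusted p = 0.0532) and with centring on the pan-epithelial list (adjusted p = 0.0517).

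Genes of the absorptive surface fell. Of 19 brush border genes 12 fell and none rose. Naaladl1, a peptidase of the enterocyte surface, read 6.14, 5.96, 6.01 and 6.11 against 8.04, 9.15, 9.75 and 9.58. The inflamed arrays were uniform, and normal mucosa 1 was the lowest normal array. Naaladl1 fell 8.42-fold (adjusted p = 7.69e-06), the metalloprotease meprin (Mep1a) 3.86-fold, and the microvillar cadherin Cdhr2 fell by 1.11 ± 0.13. The HNF4 site CAAAGTCCA, read by a transcription factor of enterocytes, was in the promoter of 1 of the 16 members searched (6.25%). Among all 27025 genes searched, 150 held it (0.555%).

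Of 26 salt and water transport genes 10 fell (38.5%) and 5 rose (19.2%, beside 13.7% of all genes), the rises numbering 8 with centring on the pan-epithelial list. Several of the falls serve absorption. All 3 subunits of the epithelial sodium channel were lower: Scnn1a fell by 0.90 ± 0.17, Scnn1b fell by 0.84 ± 0.20 and Scnn1g fell by 1.5 ± 0.26. Scnn1g read 9.96, 9.08, 9.22 and 9.91 against 11.39, 11.51, 10.82 and 10.45, so that normal mucosa 6 came nearest to the inflamed arrays. The proton-potassium pump Atp12a read 10.25, 10.28, 10.36 and 9.89 against 12.31, 12.32, 11.94 and 11.74 and fell 3.69-fold (adjusted p = 0.000172). The sodium-proton exchanger Slc9a2 fell by 1.15 ± 0.20 and the water channel Aqp8 of surface colonocytes fell by 1.81 ± 0.40. The chloride-bicarbonate exchanger Slc26a3 read 11.68, 12.03, 12.19 and 11.86 against 12.83, 12.96, 13.09 and 12.85. Its groups did not overlap, but the fit of 3 groups gave -1.0 ± 0.60 (adjusted p = 0.216), while a fit of the 8 arrays alone called it (adjusted p = 0.000685), as did the replicate block (adjusted p = 0.0401).

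Among the rises were genes of chloride secretion and 2 water channels. The chloride channel Cftr read 9.13, 9.31, 9.13 and 8.81 in inflamed and 7.32, 7.13, 8.46 and 8.46 in normal mucosa, with normal mucosa 4 and 6 near the inflamed arrays. It rose by 1.25 ± 0.28 (adjusted p = 0.00532), and the cotransporter Slc12a2, which loads chloride into secreting cells, by 0.81 ± 0.14 (adjusted p = 0.00109). Aqp4, of crypt cells, rose by 1.40 ± 0.34, and Aqp1, a water channel of vessel walls, by 1.61 ± 0.28. The plot of transport genes shows the 2 sets side by side.

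**Figure D4:**
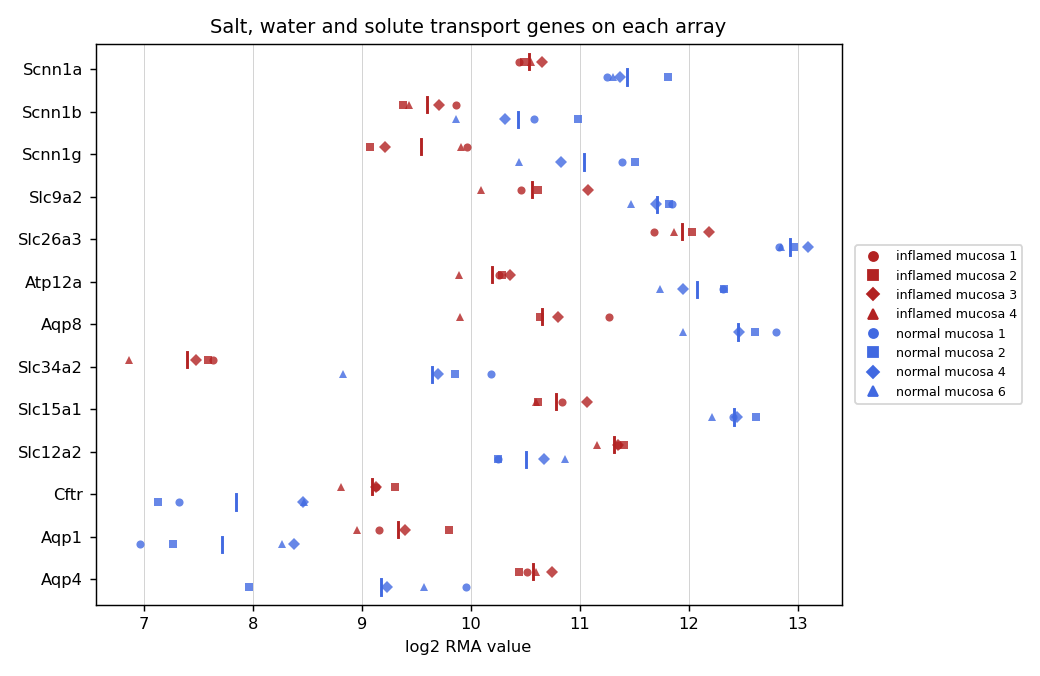
Log2 values of transport genes on each array (red, inflamed mucosa; blue, normal mucosa; symbols give the arrays, bars the group means). The 9 genes from Scnn1a to Slc15a1, which serve absorption, lie lower in inflamed mucosa, and the last 4, Slc12a2, Cftr, Aqp1 and Aqp4, lie higher.

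Carriers of organic solutes fell in 15 of 24 genes and rose in none. The phosphate carrier Slc34a2 read 7.63, 7.59, 7.48 and 6.86 against 10.19, 9.86, 9.69 and 8.83, and the peptide carrier Slc15a1 10.84, 10.61, 11.07 and 10.60 against 12.41, 12.62, 12.44 and 12.21. The groups were apart in each gene, with differences of -2.25 ± 0.35 and -1.64 ± 0.39 (adjusted p = 0.000475 and 0.00824). The folate carrier Slc46a1 fell 4.17-fold and the fructose carrier Slc2a5 3.04-fold. The bile acid carrier Slc10a2 fell by 2.09 ± 0.50 (adjusted p = 0.00795), although normal mucosa 6 lay with the inflamed arrays, and fell by 2.76 without that array. The magnesium channel Trpm6 fell by 1.88 ± 0.23. The calcium carrier protein S100g fell by 1.93 ± 0.49 (adjusted p = 0.0115), and fell by 1.22 without normal mucosa 1, where it was highest of the 8 arrays.

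Metabolic lists moved in different directions. Xenobiotic metabolism fell in 12 of 33 genes and rose in 1. The cytochromes Cyp3a13 and Cyp4f14 fell, with differences of -1.65 ± 0.31 and -1.51 ± 0.28, and the carboxylesterase Ces2a fell by 1.5 ± 0.19. The nuclear receptor Nr1i3, which induces such enzymes, fell by 0.90 ± 0.11 (adjusted p = 5.91e-05), and its relative Nr1i2 fell by 0.66 ± 0.16 (adjusted p = 0.0096). The call of Nr1i2 was lost with centring on the pan-epithelial list. Glycolysis and hypoxia genes fell in 12 of 18, a count that was 4 with centring on the pan-epithelial list, 6 without inflamed mucosa 2, normal mucosa 2 or normal mucosa 4, and 7 without normal mucosa 1 and in a fit of the 8 arrays alone. The enolase Eno3 read 9.63, 9.46, 9.54 and 9.29 against 11.94, 11.68, 11.86 and 11.70, far apart, and fell 4.97-fold (adjusted p = 7.47e-06). Bnip3, Pdk1 and Vegfa, all induced by low oxygen, fell, with differences of -1.06 ± 0.24, -0.77 ± 0.15 and -0.71 ± 0.14.

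Cholesterol and fatty acid synthesis rose in 5 of 17 genes, a count of 3 without inflamed mucosa 2, in a fit of the 8 arrays alone and with centring on the medians of the named genes, 9 without normal mucosa 1 and without both normal mucosa 1 and 6, and 13 with centring on the pan-epithelial list. The desaturase Scd1 read 10.42, 10.33, 10.50 and 11.01 against 8.28, 8.75, 9.16 and 9.05 and rose by 1.76 ± 0.18 (adjusted p = 1.72e-05). Fatty acid synthase (Fasn) rose by 0.89 ± 0.24 (adjusted p = 0.0143), with normal mucosa 6 among the inflamed arrays. In fatty acid oxidation 3 of 17 genes rose and 4 fell (17.6% and 23.5%, beside 13.7% and 13% of all genes). The falls numbered 1 with centring on the pan-epithelial list and 10 with centring on the medians of the named genes. They numbered 2 without inflamed mucosa 3, inflamed mucosa 4, normal mucosa 1 or normal mucosa 2. A fit of the 8 arrays alone and array weights also gave 2. Pdk4, which spares glucose in muscle and fat, rose by 2.14 ± 0.36, and the mitochondrial coactivator Ppargc1a fell by 1.18 ± 0.27. Only 1 of 25 respiratory chain genes fell, and none rose.

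Goblet cell genes rose in part. The main mucin Muc2 and the trefoil peptide Tff3 did not pass (0.18 ± 0.11 and -0.18 ± 0.09, adjusted p = 0.209 and 0.162), although Muc2 passed as a rise of 0.44 with centring on the pan-epithelial list. Of 17 goblet cell genes 5 rose and none fell, the rises numbering 9 with centring on the pan-epithelial list. Retnlb, a goblet cell protein induced by bacteria and by type 2 cytokines, read 10.52, 11.92, 9.16 and 11.85 against 8.37, 5.31, 6.47 and 8.22. Both groups varied widely without overlap, and Retnlb rose 13.6-fold (adjusted p = 0.00172), a difference of 3.77 that was 3.17 without normal mucosa 2. Spink4 and Reg4, of deep crypt secretory cells, rose by 1.69 ± 0.12 and 1.39 ± 0.20 (adjusted p = 1.27e-06 and 0.000265). Of 14 enteroendocrine genes 1 rose and 1 fell. The 1 that rose was the glucagon gene, and Chga, common to these cells, did not pass (-0.20 ± 0.17). The membrane mucin Muc1 fell by 1.95 ± 0.32 (adjusted p = 0.000641).

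Genes of protein folding in the endoplasmic reticulum rose in 10 of 16 and fell in none. Derl3, which helps remove misfolded protein and is abundant in plasma cells, read 9.35, 10.25, 9.61 and 9.77 against 7.07, 7.02, 6.65 and 7.28 and rose 6.69-fold (adjusted p = 0.000439). The chaperones Hspa5, Hsp90b1 and Hyou1 rose by 0.53 ± 0.10, 0.64 ± 0.12 and 0.65 ± 0.13, and the disulfide isomerase Pdia6 by 0.83 ± 0.17. For each of these 4 genes the groups did not overlap. Xbp1, the transcription factor of this response, rose by 0.49 ± 0.13 (adjusted p = 0.0117), a call lost without both normal mucosa 1 and 6 (adjusted p = 0.0603). Plasma cell genes moved with this list, and their part in it was not tested.

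Stem cell and Wnt target genes did not move as 1 group. Of 16 genes 6 rose and 1 fell. Lgr5, the receptor that marks crypt base stem cells, read 6.85, 6.74, 6.95 and 7.47 against 6.28, 6.45, 6.93 and 7.93, overlapping widely (0.11 ± 0.33, adjusted p = 0.817). Smoc2 rose by 1.07 ± 0.17 and the Wnt feedback inhibitor Nkd1 by 0.78 ± 0.13. The adhesion receptor Cd44 rose by 1.69 ± 0.40 (adjusted p = 0.00787), with normal mucosa 1 near the inflamed arrays. Rnf43, which removes Wnt receptors, fell by 0.55 ± 0.14 (adjusted p = 0.0129), though not with centring on the pan-epithelial list.

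Of 28 proliferation genes 11 rose and none fell. The count was 19 without inflamed mucosa 2 or normal mucosa 6, and 21 with the replicate block and with centring on the pan-epithelial list. The replication helicase Mcm6 rose by 1.21 ± 0.30 and Rrm2, which makes deoxynucleotides, by 0.90 ± 0.18 (adjusted p = 0.00948 and 0.00301). Mki67, present in all dividing cells, read 9.75, 8.80, 10.35 and 9.87 against 8.54, 7.25, 9.14 and 9.66. Inflamed mucosa 2 lay below normal mucosa 4 and 6. Mki67 differed by 1.05 ± 0.41 (adjusted p = 0.0718) and passed when inflamed mucosa 2 or normal mucosa 6 was left out (adjusted p = 0.0369 and 0.0189) with the replicate block (adjusted p = 0.0277) and with centring on the pan-epithelial list (adjusted p = 0.0324). Among 15 regeneration and fetal-like genes 5 rose. Clu, a marker of that state, did not pass (0.32 ± 0.38, adjusted p = 0.532).

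Inflamed mucosa carried more transcript of macrophages and plasma cells, whereas neutrophil genes did not separate the groups. Of 22 macrophage genes 16 rose and none fell, with a median of 1.49. The mannose receptor Mrc1, of resident macrophages, read 8.31, 9.27, 9.28 and 9.13 against 6.85, 5.92, 6.18 and 6.49, with inflamed mucosa 1 lowest of its group and still above every normal array. It rose 6.22-fold and lysozyme (Lyz2) 6.75-fold (adjusted p = 4.08e-06 and 2.15e-05). Of 20 genes of B and plasma cells, 12 rose and 1 fell. The joining chain of secreted antibodies (Jchain) read 12.10, 12.44, 12.17 and 12.22 against 9.68, 6.18, 8.29 and 10.35. The inflamed arrays were even, whereas the normal arrays spread over more than 4 log2 units with normal mucosa 2 lowest. Jchain rose 12.2-fold (adjusted p = 0.00174), a difference of 3.61 that was 2.79 without normal mucosa 2. Mzb1 of plasma cells rose by 2.51 ± 0.46, the B cell receptor chain Cd79a by 2.30 ± 0.51 and the plasma cell factor Irf4 by 2.39 ± 0.43. T and NK cell genes rose in 5 of 29 (17.2%, near the 13.7% of all genes), a count of 3 without inflamed mucosa 2, normal mucosa 2 or normal mucosa 4 and in a fit of the 8 arrays alone, and 8 without both normal mucosa 1 and 6, and the median of the list was -0.16. The 1 that fell was Cd3d, another chain of the T cell receptor complex, with a difference of -0.43 ± 0.13 (adjusted p = 0.0278) and a call lost in 8 of the alternatives. The costimulator Cd28 and the cytokine receptor Il7r rose by 1.29 ± 0.25 and 1.26 ± 0.29 (adjusted p = 0.00204 and 0.00698).

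Neutrophil genes did not mark inflamed mucosa. Of 17 genes 1 rose and 3 fell, the falls (17.6%, beside 13% of all genes) numbering 0 with centring on the pan-epithelial list, and 1 without inflamed mucosa 2 and in a fit of the 8 arrays alone. Calprotectin S100a8 read 5.66, 5.24, 5.55 and 5.39 in inflamed and 7.05, 5.63, 5.68 and 5.51 in normal mucosa. All inflamed arrays were near background, and normal mucosa 1 alone was higher. S100a8 differed by -0.51 ± 0.64 (adjusted p = 0.555). The 1 gene that rose was Retnlg (1.86 ± 0.43, adjusted p = 0.00653). The cytokines Il1b, Tnf and Il6 did not pass either (-0.09 ± 0.57, -0.55 ± 0.35 and -0.01 ± 0.45; adjusted p = 0.915, 0.237 and 0.989), and Il6 was at background on all 8 arrays. Dendritic cell genes rose in 1 of 8 and MHC class II genes in 1 of 8 (12.5% each, near the 13.7% of all genes). Eosinophil genes rose in 0 of 6, and no member of these lists fell.

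Mast cell transcripts divided the inflamed samples. The mast cell mean was 6.11, 7.71, 6.25 and 7.60 on the inflamed and 6.19, 5.83, 5.96 and 5.60 on the normal arrays. Carboxypeptidase Cpa3 of mast cell granules read 5.67, 9.23, 5.89 and 9.47 against 5.44, 4.91, 5.10 and 4.56, and the mucosal mast cell protease Mcpt1 6.28, 9.74, 6.55 and 11.02 against 7.18, 5.36, 6.50 and 4.91. Inflamed mucosa 2 and 4 were high, and inflamed mucosa 1 and 3 lay with or close to the normal arrays. Of 12 genes 6 rose, a count of 1 without inflamed mucosa 4, in a fit of the 8 arrays alone and without both normal mucosa 1 and 6, 2 without inflamed mucosa 2, and 3 without normal mucosa 2. Cpa3 rose by 2.56 ± 0.71 (adjusted p = 0.0183), and Mcpt1 did not pass (2.41 ± 0.90, adjusted p = 0.0606). Mcpt1 passed when inflamed mucosa 1, inflamed mucosa 3 or normal mucosa 1 was left out (adjusted p = 0.0217, 0.0289 and 0.0488), and also with centring on the pan-epithelial list or on the medians of the named genes. The proteases Mcpt2 and Mcpt4, the IgE receptor chain Fcer1a and the neuropeptide Nmu rose by 2.60 ± 0.77, 1.30 ± 0.36, 1.11 ± 0.33 and 1.81 ± 0.56. Each of these 4 calls and that of Cpa3 was lost without inflamed mucosa 2 (adjusted p from 0.0581 to 0.0932), without inflamed mucosa 4 (0.0523 to 0.0766), without both normal mucosa 1 and 6 (0.0531 to 0.0967) and in the fit of the 8 arrays alone (0.0569 to 0.0807). Further arrays mattered for some: the call of Mcpt2 was also lost without normal mucosa 2 or 6, that of Fcer1a without normal mucosa 2 and that of Nmu without normal mucosa 2 or 4 and with trend and robust variance (adjusted p = 0.0523). Inflamed mucosa 2 and 4 also had the highest smooth muscle means.

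Of 28 chemokine genes 8 rose and 2 fell. Cxcl14, a chemokine of stroma and epithelium, read 8.96, 8.96, 8.83 and 8.76 against 6.30, 6.71, 5.93 and 6.29. The groups were far apart, and Cxcl14 rose 5.92-fold (adjusted p = 5.38e-07). The monocyte and eosinophil attractants Ccl8 and Ccl11 rose by 2.36 ± 0.32 and 2.29 ± 0.28, and the stromal chemokine Cxcl12 by 1.45 ± 0.18. Cx3cl1, a membrane-bound chemokine, fell by 0.86 ± 0.12 (adjusted p = 0.000211). Cytokines and their receptors rose in 6 of 42 (14.3%) and fell in 8 (19%), not far from the 13.7% and 13% of all genes, the falls numbering 2 without inflamed mucosa 4 or normal mucosa 2 and with centring on the pan-epithelial list, 3 without inflamed mucosa 2 or normal mucosa 1, 4 with the replicate block, with array weights and without both normal mucosa 1 and 6, 5 without inflamed mucosa 3, with sex as a covariate and with cyclic loess, and 18 with centring on the medians of the named genes. The oncostatin M receptor Osmr and its partner Il6st rose by 2.45 ± 0.42 and 1.79 ± 0.14 (adjusted p = 0.000947 and 1.66e-06). Il15, which sustains intraepithelial lymphocytes, read 6.88, 7.5, 8.01 and 6.89 against 8.80, 9.57, 9.23 and 9.08 and fell 3.6-fold (adjusted p = 0.000363). Il22ra1, the epithelial chain of the interleukin-22 receptor, fell by 0.87 ± 0.13 (adjusted p = 0.000394).

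Of 17 complement and coagulation genes 12 rose and 1 fell, with a median of 1.84. C1s1, a protease that starts the classical pathway, read 9.26, 9.77, 9.09 and 9.57 against 5.31, 5.22, 5.33 and 6.69, with normal mucosa 6 highest among the normal arrays. It rose 13.8-fold (adjusted p = 2.32e-06). C4b, the next component, and Serping1, the inhibitor of C1, rose 9.85-fold and 18-fold, the anaphylatoxin receptor C3ar1 by 2.23 ± 0.43 and thrombomodulin (Thbd) of endothelium by 2.28 ± 0.15. Of 23 antimicrobial and acute-phase genes 8 rose and 4 fell, the falls (17.4%) numbering 1 without the dimmest 25% of genes, and 2 without inflamed mucosa 2 or inflamed mucosa 4, with cyclic loess, with centring on the pan-epithelial list and without both normal mucosa 1 and 6. The secreted phospholipase Pla2g2a read 8.69, 8.97, 9.10 and 9.72 against 5.52, 5.07, 5.59 and 5.94 and rose 12.1-fold (adjusted p = 3.55e-06). Ceruloplasmin (Cp) and the endotoxin binding protein Lbp rose by 3.06 ± 0.19 and 2.36 ± 0.20. Serum amyloid Saa1 went the other way, at 7.52, 7.59, 7.69 and 7.76 against 10.26, 10.15, 9.90 and 9.13, a difference of -2.22 ± 0.32 (adjusted p = 0.000216). Its close relative Saa2 fell by 0.97 ± 0.19, and probes may not separate the family fully.

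Sensors of microbes rose in 7 of 21 and fell in 3; the falls (14.3%, near the 13% of all genes) numbered 8 with centring on the medians of the named genes. The nucleic acid receptors Tlr13 and Tlr7 of phagocytes rose by 1.98 ± 0.36 and 1.83 ± 0.25, and Tnfaip3, a brake on NF-κB, fell by 0.94 ± 0.15 (adjusted p = 0.00143, 0.000175 and 0.000612). Inflammasome and pyroptosis genes fell in 4 of 14 and rose in none, a count of 1 with centring on the pan-epithelial list, and 8 with the replicate block and with centring on the medians of the named genes. The epithelial sensor Nlrp6 fell by 0.99 ± 0.27 (adjusted p = 0.0176), a call lost without both normal mucosa 1 and 6 (adjusted p = 0.0971) and with centring on the pan-epithelial list (adjusted p = 0.0635). The pore former Gsdmd fell by 0.70 ± 0.12 (adjusted p = 0.00107).

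Interferon-stimulated genes varied widely between arrays of the same group. The mean over 24 genes of the type I interferon response was 8.10, 8.41, 7.86 and 9.40 on the inflamed arrays and 10.73, 8.17, 8.58 and 10.12 on the normal arrays. Normal mucosa 1 and 6, both female, were highest. Inflamed mucosa 1, also female, was low, and inflamed mucosa 4, a male, was the highest of its group. Such genes are switched on through the interferon response element, searched as 2 copies of GAAA with 2 bases of any kind between them (TTTC on the other strand). Windows upstream of the start of 4 of them are shown with the element in capitals (RefSeq, GRCm38.p6), because these 4 were highest on the same arrays. They lie at chr19:34640755-34640843 and chr19:34583343-34583446 on the plus strand and at chr12:26456533-26456602 and chr5:120907526-120907575 on the minus strand:
Ifit1: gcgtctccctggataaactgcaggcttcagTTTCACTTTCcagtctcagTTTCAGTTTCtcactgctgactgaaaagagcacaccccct
Ifit3: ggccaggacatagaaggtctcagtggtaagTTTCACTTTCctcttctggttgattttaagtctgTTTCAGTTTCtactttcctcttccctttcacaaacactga
Rsad2: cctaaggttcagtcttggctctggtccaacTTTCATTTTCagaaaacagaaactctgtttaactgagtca
Oas1a: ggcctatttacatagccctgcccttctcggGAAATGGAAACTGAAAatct
Of the 17 list members searched, 10 held the element (58.8%), against 1079 of the 27025 genes searched (3.99%), both strands and overlapping matches counted. A match describes the letters and does not show binding.

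Ifit1, an inhibitor of viral translation, read 8.42, 9.05, 8.01 and 10.70 in inflamed and 11.81, 8.63, 9.45 and 11.39 in normal mucosa, and its relative Ifit3 7.12, 8.36, 7.67 and 9.96 against 11.52, 7.11, 7.52 and 10.85. Rsad2, an antiviral enzyme, read 7.25, 7.71, 6.67 and 8.77 against 11.01, 7.74, 8.22 and 10.48, and Oas1a, which makes the activator of RNase L, 8.55, 8.20, 7.95 and 9.24 against 10.25, 8.77, 9.10 and 9.75. In each gene normal mucosa 1 and 6 were the 2 highest of the 8 arrays, inflamed mucosa 4 came next, and the groups overlapped. For the first 3 the differences were -1.27 ± 0.69, -0.98 ± 0.91 and -1.76 ± 0.63 (adjusted p = 0.174, 0.418 and 0.0516). Rsad2 passed as a difference of -2.15 without inflamed mucosa 4 (adjusted p = 0.0328), and also without normal mucosa 2 (adjusted p = 0.0167) or normal mucosa 4 (adjusted p = 0.0291). Of the list 4 genes fell and none rose, a count of 0 without both normal mucosa 1 and 6, 2 without inflamed mucosa 1, inflamed mucosa 2, inflamed mucosa 3, normal mucosa 1 or normal mucosa 6, in a fit of the 8 arrays alone, with the replicate block, with sex as a covariate and with centring on the pan-epithelial list, 7 without inflamed mucosa 4, normal mucosa 2 or normal mucosa 4, and 11 with centring on the medians of the named genes. Among them, the RNA sensor Ifih1 fell by 1.07 ± 0.25 and the factor Irf7 fell by 1.21 ± 0.31 (adjusted p = 0.00729 and 0.0124). Without both normal mucosa 1 and 6 neither passed (adjusted p = 0.0529 and 0.0896). Oas1a fell by 0.98 ± 0.32 (adjusted p = 0.0384) and lost its call in 11 alternatives, among them each fit without 1 of inflamed mucosa 1, 2 or 3 or of normal mucosa 1 or 6 (adjusted p from 0.0644 to 0.102). Irf1, induced by interferon-gamma, fell by 0.84 ± 0.22 (adjusted p = 0.0126). Of 9 genes that load antigen on class I molecules 4 fell (2 in a fit of the 8 arrays alone, with centring on the pan-epithelial list and without both normal mucosa 1 and 6), among them the peptide loader Tapbp (-0.72 ± 0.13, adjusted p = 0.0013).

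**Figure D5:**
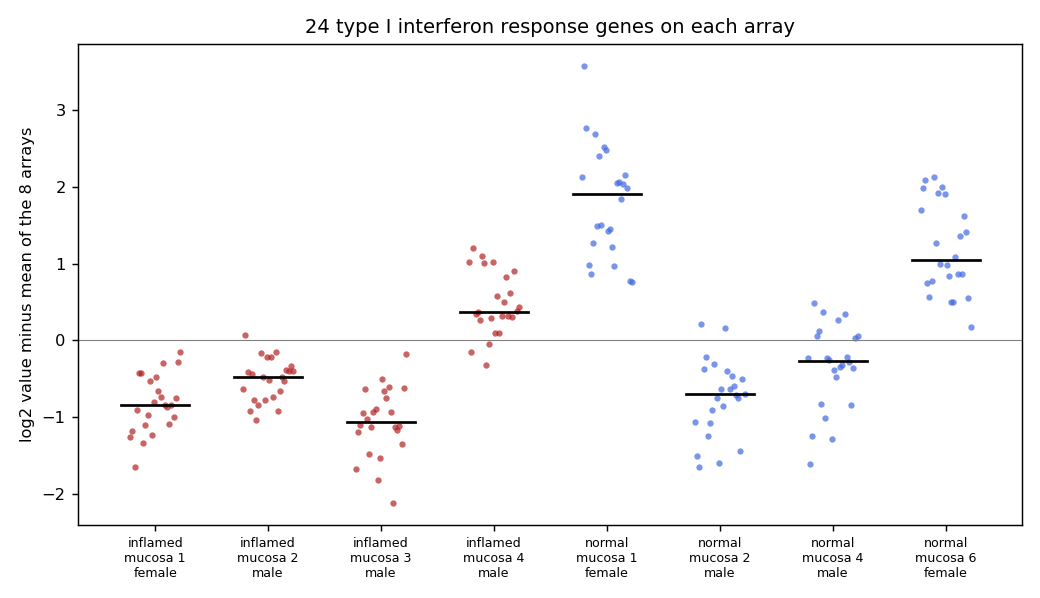
Log2 value of each of 24 type I interferon response genes minus its mean over the 8 arrays (points; red, inflamed mucosa; blue, normal mucosa), with the median of the genes on each array as a bar and the sex from the labels under it. Normal mucosa 1 and 6 lie highest and inflamed mucosa 4 next, while the other 5 arrays lie below 0 in their medians.

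Immediate early genes, which respond within minutes to growth factors and stress, fell in 8 of 14 and rose in 1. Fos read 8.85, 8.99, 8.07 and 8.64 in inflamed and 10.39, 9.66, 10.54 and 10.06 in normal mucosa. All inflamed arrays were below all normal arrays, a difference of -1.53 ± 0.25 (adjusted p = 0.000615). Junb and the stress factor Atf3 fell, with differences of -0.98 ± 0.14 and -1.58 ± 0.42 (adjusted p = 0.000217 and 0.0138). Of 15 prostaglandin genes 5 rose and 3 fell; the rises numbered 3 without inflamed mucosa 1, inflamed mucosa 2, inflamed mucosa 4 or normal mucosa 1, with centring on array medians, without both normal mucosa 1 and 6 and with centring on the medians of the named genes, and the falls 6 with centring on the medians of the named genes. The inducible cyclooxygenase Ptgs2 read 8.39, 8.32, 8.43 and 8.42 against 6.53, 5.91, 6.25 and 6.99 and rose by 1.97 ± 0.31 (adjusted p = 0.000528). The synthases Ptges and Ptgis, of prostaglandin E2 and prostacyclin, rose by 1.38 ± 0.17 and 1.40 ± 0.18. Slco2a1, which takes prostaglandins up for breakdown, read 10.56, 10.37, 10.71 and 10.71 against 11.80, 12.11, 12.03 and 11.70 and fell by 1.33 ± 0.11 (adjusted p = 2.35e-06). Of 8 genes named for epithelial-mesenchymal transition, most of which stromal cells also make, 6 rose, Zeb1 by 2.18 ± 0.21 and Zeb2 by 2.34 ± 0.24.

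Inflamed mucosa also differed from the adenocarcinomas of the series, a comparison that shares the inflamed arrays with the one above. In it 1420 genes (7.12%) were called, 581 (2.91%) higher and 839 (4.21%) lower in tumour. Without inflamed mucosa 2 or 4 the count was 775 or 857. The values below come from the fit without the replicate block. Smooth muscle genes were lower in tumour in 17 of 21, Myh11 at -2.70 ± 0.25 (tumour minus inflamed, n = 5 and 4, limma, adjusted p = 3.97e-05). Neutrophil genes were higher in tumour in 10 of 17, S100a8 at 2.72 ± 0.61 (adjusted p = 0.0154; 0.0517 without inflamed mucosa 2), and matrix proteases and their inhibitors in 10 of 19. Transport genes were lower in tumour in 12 of 26, Slc26a3 at -3.59 ± 0.57 (adjusted p = 0.00198) and Aqp8 at -3.06 ± 0.38. Regeneration genes were higher in tumour in 8 of 15, with Ptgs2 at 2.16 ± 0.30 and Clu at 1.84 ± 0.37 (adjusted p = 0.000781 and 0.00775). Epithelial Bmp2, Ihh and occludin, which were lower in inflamed than in normal mucosa, did not pass between tumour and inflamed mucosa (0.15 ± 0.13, 0.19 ± 0.08 and -0.12 ± 0.13; adjusted p = 0.623, 0.213 and 0.723). With centring on the pan-epithelial list occludin fell from inflamed mucosa to tumour (adjusted p = 0.0333).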

How the data were processed

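RNA of 13 mouse tissue samples was measured on Affymetrix Mouse Gene 1.0 ST arrays, 1 array each. The log2 expression values per transcript cluster are those the authors deposited, made by RMA (background correction, quantile normalization and probe summary), per the labels. The submitters' processing notes name Affymetrix Command Console 2.0, Expression Console 1.1 and Partek without versions or roles for the last. No source used here names the genome build of the array. Quantile normalization gives all arrays 1 distribution, so a large gain of some transcripts can lower others.

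Of 35556 clusters, 21789 name 1 gene in the platform annotation, 1621 name several, and 12146 were not listed there or had no symbol. Entrez numbers of 21698 matched RefSeq (GRCm38.p6), which gave current symbols. The cluster with the highest mean over all 13 arrays stood for each of 19938 genes. limma 3.58.1 in R 4.3.3 fitted 3 groups (4, 4 and 5 arrays; eBayes), tested on simulated data first. Groups came from the labels' tissue type. Gene lists (64) were counted at adjusted p below 0.05 and described beside the shares over all genes. A list mean is the plain mean of its members' log2 values. Promoters are RefSeq windows from 250 bases before to 50 after a start. They were counted per gene, with 1 chromosome left out.

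The members and lists were chosen with earlier results of these data known. Genes named were drawn from Itga6 and Itgb4, the 20 largest rises and falls without overlap, up to 5 called members of a list per direction and up to 3 not called, the 10 genes with the widest range in each group, and list members a count needed; not every gene so given is named. Same-numbered arrays of inflamed and normal mucosa did not deviate together (correlations 0.03, -0.04 and 0.02). Those of adenocarcinoma and inflamed mucosa did (0.32, 0.20, 0.20 and 0.39). Same-numbered inflamed and normal arrays share sex and age, so the low correlations do not settle whether they are paired. Values of that comparison come from the fit without the block, whose effect the closing section gives. Alternatives were the 8 arrays alone, a block on the replicate number (fixed or random), sex or age as a covariate, leaving out the dimmest 25% of genes, other scalings, all clusters, other variance models, array weights and leaving out each array. Leaving out both normal mucosa 1 and 6, and centring on medians of the named genes, were added after seeing the data. In that centring the named genes are all 19938 genes tested. The number of arrays limits the precision.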

Additional observations from a re-analysis of the deposited data

Results flagged for a closer look

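Dixon's test for outliers was run on 436 sets of 4 arrays (genes named in the text and list means, within a group). In 39 of them an array lay farther from the other 3 than the test allows. Chance gives about 5% for sets not chosen by their spread. Some genes here were chosen for the widest range in a group, and genes of the same list are not independent. The 39 are therefore not set against that share. Values are log2.

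Normal mucosa 1 was high in the squamous genes Krt5 (12.10), Krt4 (11.22), Krt6a (10.60), Krt6b (11.92) and Tmprss11b (9.72) and in their list mean (9.23). The same array was high in the neutrophil list mean (7.05), Ltf (11.53), S100a8 (7.05), Ppbp (12.39), the T cell genes Cd3g (9.35) and Cd28 (6.70), and Tgfb1 (8.17).

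Normal mucosa 6 was high in the muscle genes Acta2 (10.03) and Myh11 (7.93), the BMP ligands Bmp4 (8.79) and Bmp5 (7.86), the complement genes Serping1 (8.42) and C1s1 (6.69), and the matrix and fibroblast mean (7.73). Normal mucosa 2 was low in Wnt5a (5.75) and Rrm2 (6.62), and normal mucosa 4 was high in Frzb (5.27).

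Inflamed mucosa 1 was low in stromal and macrophage genes, with Postn at 10.67, Igfbp7 at 11.90, Zeb2 at 7.95, Mrc1 at 8.31 and the matrix and fibroblast mean at 9.01, and high in Krt6a (5.90). Inflamed mucosa 2 was high in Dkk3 (8.67) and low in Gsdmd (8.08) and the proliferation mean (7.94). Inflamed mucosa 3 was high in Cdhr2 (10.83) and Pdk1 (8.52) and low in Pdia6 (9.44). Inflamed mucosa 4 was high in the interferon genes Ifih1 (10.44) and Irf7 (11.49) and in the mesothelial gene Upk3b (7.54), and low in Hyou1 (9.42).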

How the results depend on the processing

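Of the counts over all genes, only these moved by more than 1.5 times. Without inflamed mucosa 2, 3524 genes were called, 1391 were lower and 775 were called between adenocarcinoma and inflamed mucosa. Without inflamed mucosa 4, 1722 were lower and 857 were called between adenocarcinoma and inflamed mucosa. Without normal mucosa 2, 1471 were lower. With arrays centred on the pan-epithelial list, 5909 genes were higher, 615 lower and 5640 called between adenocarcinoma and inflamed mucosa; with centring on medians of the named genes, 11385 were called and 9510 were lower. Leaving out 1 array gave 3524 to 5786 called genes, 2133 to 2762 higher, 1391 to 3024 lower, 995 to 1195 at least 2-fold and 775 to 1437 between adenocarcinoma and inflamed mucosa. Scaling moved the median difference of all genes to 0.16 with the pan-epithelial list, -0.28 with the named genes, -0.12 with array medians and -0.02 with cyclic loess. Krt19 reversed with centring on the pan-epithelial list, of which it is a member, to 0.20 (limma, adjusted p = 0.049). It lay between -0.24 and 0.20 over all settings, and the cause was not tested. With the replicate block 4754 genes were called (2588 higher, 2166 lower, 1182 at least 2-fold) and 1183 between adenocarcinoma and inflamed mucosa. There it changed no call of a named gene. Between inflamed and normal mucosa same-numbered arrays did not deviate together, which does not settle whether they are paired. Dim genes near 5.57 have compressed differences.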
